A study of Rattus norvegicus with 6 samples.

Results

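The transcripts described were the newly predicted long non-coding RNA (lncRNA) transcripts of the rat sciatic nerve, the transcripts assembled from the sequencing reads of these nerves that matched neither of the lncRNA databases used, NONCODE and Ensembl. They were chosen by their identifier, which starts with MSTRG, the prefix that the assembler gives to loci it builds itself. There were 1537 such transcripts among the 22721 lncRNAs in the lncRNA table, or 6.765%, beside 20259 lncRNAs from NONCODE and 925 from Ensembl. The sciatic nerves came from 1-month-old Sprague-Dawley rats in 3 groups with 2 libraries each, 1 rat per library. The control group, a normal control in the labels, had the nerve exposed without clamping per the study's methods, the D4 group was taken 4 days after the left nerve was crushed with forceps, and the D7 group 7 days after it. The rats were given no genotype in the labels, and a crush leaves the connective tissue tube of the nerve in place. The lncRNA table held 2694777 to 3043817 fragments per library, and the table of mRNAs held between 18727255 and 25350886.

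Long non-coding RNAs are RNAs of at least 200 nt that carry no long open reading frame. Some act on the gene they overlap or neighbour, others act elsewhere, and for many no function is known. A transcript predicted from reads alone has weaker evidence than a database entry: total RNA freed of ribosomal RNA still holds unspliced precursors, so fragments from the introns or the untranslated ends of a gene can be assembled into separate transcripts. In the crushed nerve the axon beyond the lesion degenerates, Schwann cells take down their myelin and turn into repair cells, macrophages clear the debris, and remyelination begins once axons have grown back.

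The predicted lncRNAs were long. Their median length was 3245 nt, with quartiles of 1315 and 6865 nt and a range from 201 to 41696 nt, whereas the median was 658 nt for NONCODE and 810 nt for Ensembl lncRNAs. Over 5000 nt were 540 of them, or 35.13%, against 23 NONCODE and 14 Ensembl lncRNAs. Of the 220 lncRNAs over 10000 nt in the whole table, 219 were newly predicted. With only the longest transcript of each assembled locus the median was 3197 nt. The 2 longest were MSTRG.12272.61 with 41696 nt and MSTRG.12272.45 with 41404 nt, both inside Celf2, a gene for an RNA-binding protein that regulates splicing, and the 2 shortest were MSTRG.16853.1 with 201 nt and MSTRG.18115.1 with 204 nt.

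Many of them also had little intron sequence. The summed intron length, taken as the genomic span minus the transcript length, had a median of 316 nt and never fell under 20 nt, which the study's requirement of at least 2 exons makes larger than 0. In 485 of the predicted lncRNAs, or 31.55%, all introns together came to between 20 and 99 nt, and 198 of these lay between 20 and 29 nt. Only 292 NONCODE lncRNAs (1.441%) had introns of 1 to 99 nt in sum, while 9607 (47.42%) had none. The 485 predicted lncRNAs with such short introns had a median length of 4980 nt, and 324 of them (66.8%) lay wholly inside a listed gene. The 245 with introns of 10000 nt and over had a median length of 2241 nt, and 64 of them (26.12%) lay inside a gene. There were 242 predicted lncRNAs that were over 5000 nt long with introns of 1 to 99 nt in sum, and 0 such transcripts in the other classes. Transcripts without any intron, which only the other classes held, were not part of this count. Exon borders were not given in the tables, so whether a given intron was spliced out was not tested.

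**Figure D1:**
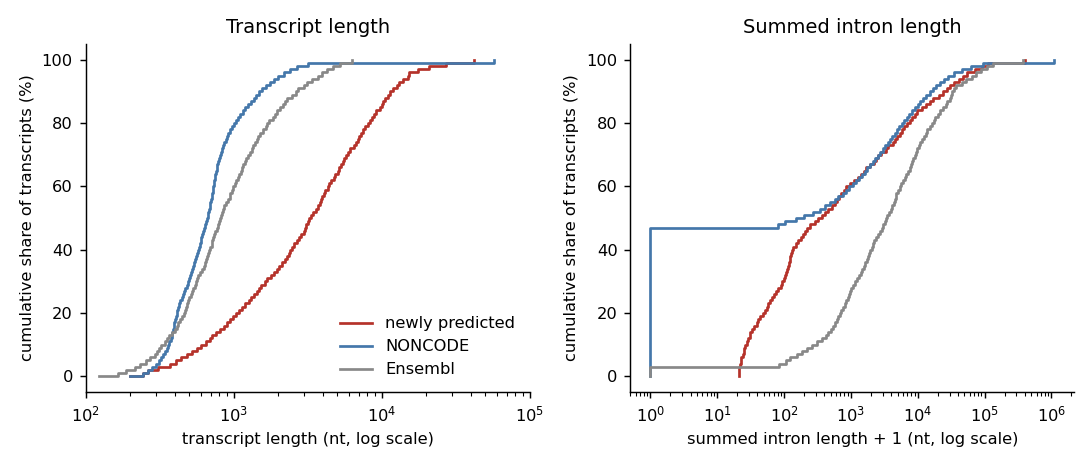
Cumulative share of transcripts (%) against transcript length (left) and against summed intron length plus 1 (right), both in nt on a log scale, for newly predicted, NONCODE and Ensembl lncRNAs. The newly predicted curve lies to the right of the others in length, with a median of 3245 nt, and in the right panel it starts at 20 nt and has 31.55% of its transcripts under 100 nt.

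The 1537 transcripts belonged to 1268 assembled loci. Of these, 1107 held a single transcript, and 161 held the other 430. The locus with the most was MSTRG.12272 on chromosome 17, with 16 transcripts around Celf2. Chromosome 1 carried 171 of them, and 5 lay on sequences not placed on a chromosome. Coordinates below are those of the rat genome build Rnor_6.0, except for the sequences shown before gene starts, which are of the build GRCr8.

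Relative to the genes in the mRNA table, 843 predicted lncRNAs (54.85%) lay wholly inside a gene, 56 (3.643%) overlapped one in part, 171 (11.13%) lay outside but within 10 kb, and 463 (30.12%) lay farther away, at a median distance of 41010 nt. For the other 4 no gene was listed on the same sequence. The listed genes include non-coding ones, such as the small nucleolar RNA gene SNORD34, which MSTRG.27697.1 overlapped. Among NONCODE lncRNAs 57.66% lay wholly inside a gene, a share close to that of the predicted ones. Partial overlap held 19.81% of them, the class within 10 kb 15.55% and the farther class 6.975%. All 925 Ensembl lncRNAs lay wholly inside a listed gene. The 899 predicted lncRNAs that overlapped a gene were spread over 631 distinct genes. Celf2 held 14 of them, Rbms3 10, Fign 8, Ebf1 7, and Slit2, Mboat1 and Adgrl3 6 each. An overlap with a NONCODE or Ensembl lncRNA was seen for 198. Neither the strand of the transcripts nor a strand setting for the counting was given, so sense and antisense overlap could not be told apart, and a fragment inside a gene may have been counted for both.

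The predicted lncRNAs were present at moderate levels in each library. Their median log2(FPKM + 1), where FPKM is fragments per kilobase of transcript and depth of the library, was 1.60 and 1.79 in the control libraries, 1.499 and 1.514 at D4, and 1.71 and 1.76 at D7. NONCODE lncRNAs had medians of 0.83 to 0.99 and Ensembl lncRNAs of 0.15 to 0.20. The difference from all other lncRNAs was 0.79 ± 0.11 on the log2 scale (SD, n = 6 libraries), positive in 6 of 6. Among the transcripts that passed the filter on low counts it was only 0.058 ± 0.10, and positive in 4 of 6 libraries. They took 16.04% to 19.42% of the fragments in the lncRNA table, with a median of 111 to 138 fragments per transcript. There were 24 with no fragment in any library, and 1415 (92.06%) passed the filter, against 60.91% of NONCODE and 34.92% of Ensembl lncRNAs. Within the predicted lncRNAs, those inside a gene had library medians of 1.55 to 1.83 and those farther than 10 kb from any gene 1.39 to 1.71, so these ranges overlapped.

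**Figure D2:**
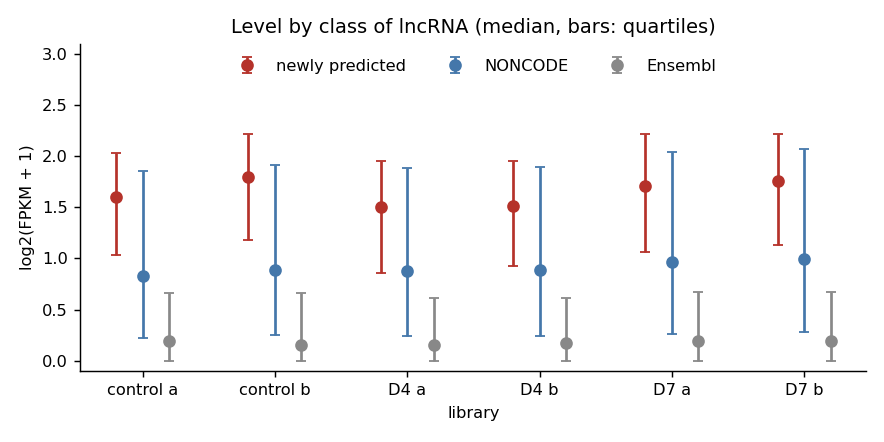
Median log2(FPKM + 1) of newly predicted, NONCODE and Ensembl lncRNAs in each of the 6 libraries; bars run from the lower to the upper quartile over transcripts. The newly predicted median lies between 1.499 and 1.793 and above the medians of both database classes in each library.

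The most abundant predicted lncRNA was MSTRG.183.1 (chromosome 1 from 11912071 to 11914300), 539 nt long and within 10 kb of a listed gene for a small RNA. Its FPKM was 1081 and 820.4 in the control libraries, 2572 and 2376 at D4, and 2018 and 2290 at D7. All 4 injured libraries were above both controls, and it was upregulated at D4 (log2 fold change 1.41 ± 0.18 SE, adjusted p = 0.0109), while at D7 its log2 fold change of 0.99 was just under the limit of 1 (adjusted p = 0.0387). The call at D4 was lost without D4 a or D4 b (adjusted p up to 0.073), and at D7 it was gained without the scaling factors (1.15, adjusted p = 0.0221) or without control a (1.25, adjusted p = 0.0196). The next, MSTRG.16744.1 on chromosome 20, 1516 nt long and 4658 nt from Fam13c, had FPKM of 101.0 and 176.1 in control, 87.55 and 105.2 at D4, and 102.8 and 105.7 at D7, which overlapped. Lower in this order stood MSTRG.2714.15 and MSTRG.2714.16, which share a start on chromosome 1, had 18.0 to 37.7 FPKM in every library, and were not called on either day. MSTRG.6760.1 and MSTRG.6756.59 both lay inside Stard13. MSTRG.6760.1 had FPKM of 12.4 and 15.5 in control, 17.4 and 20.2 at D4, and 42.3 and 31.4 at D7, with its D7 libraries above all others (log2 fold change 1.23 ± 0.21 SE, adjusted p = 0.0325). Stard13 itself had 35.2 and 35.2, 43.1 and 49.5, and 106.1 and 81.2 FPKM in the same order and was upregulated at D7 (adjusted p = 0.00325). The calls of both transcripts at D7 were lost when any 1 library was left out (adjusted p 0.0512 to 0.137).

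At 4 days after the crush, more predicted lncRNAs were downregulated than upregulated with all 6 libraries, a split that did not hold without D4 a. Of the 1415 tested, 87 were upregulated (6.15%) and 160 downregulated (11.3%) in the control vs D4 group, at an adjusted p under 0.05 and a change of at least 2-fold. Over all 14077 lncRNAs tested the shares were 5.19% and 4.87%, so the upregulated share of the predicted lncRNAs was near that of all lncRNAs and the downregulated share was above it. Their median log2 fold change was -0.24, beside 0.02 for all lncRNAs. Without the scaling factors, which shifted the median of all lncRNAs to 0.20, the split was 110 to 127, and in a fit together with the mRNAs it was 80 to 265. Downregulated transcripts made up 17 of 52 of those that overlapped a gene in part, 66 of 786 inside a gene, 14 of 158 near one and 63 of 415 far from any. The number called was 76 without D4 a (40 upregulated and 36 downregulated) and 76 without D4 b (33 and 43), 152 without control a and 151 without control b. A change of at least 2-fold in either direction, whatever the p, was seen for 462.

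In the control vs D7 group, 87 predicted lncRNAs were upregulated (6.15%) and 88 downregulated (6.22%), beside 3% and 2.79% of all lncRNAs. Their median log2 fold change was -0.13, and that of all lncRNAs 0.04. The split tipped either way with the method: it was 106 upregulated to 73 downregulated without the scaling factors, which shifted the median of all lncRNAs to 0.20, 104 to 150 in the fit together with the mRNAs, and 114 to 171 with DESeq2. The number called was 84 without control a, 103 without control b, 79 without either D4 library, 48 without D7 a and 52 without D7 b. Between the libraries of 1 group, 6.43% to 7.07% of the tested predicted lncRNAs differed more than 4-fold, and 4.49% to 5.28% of the other lncRNAs tested. The median difference went the other way in each group. On the log2 scale it was 0.35 in control, 0.26 at D4 and 0.26 at D7 for predicted lncRNAs. For the other lncRNAs it was 0.41, 0.34 and 0.36. Both days were compared with the same 2 control libraries.

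**Figure D3:**
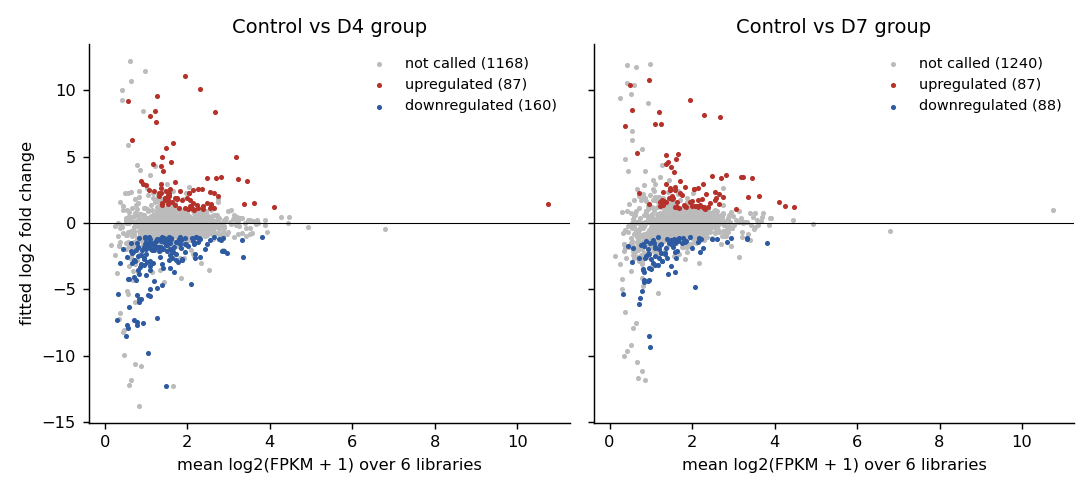
Fitted log2 fold change of the 1415 tested predicted lncRNAs at D4 (left) and D7 (right) against control, plotted against the mean log2(FPKM + 1) over the 6 libraries. Each point is 1 transcript; 87 were upregulated and 160 downregulated at D4, 87 and 88 at D7, and most points beyond 5 on either side have a low mean level.

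Among the upregulated predicted lncRNAs were several inside genes that were upregulated too. MSTRG.25154.3 (chromosome 7 from 65244583 to 65259113) was 14437 nt long with 94 nt of intron, inside Hmga2, which codes for a chromatin protein of embryonic and growing cells. It had 7 and 4 fragments in the control libraries, 5726 and 7780 at D4, and 1185 and 2111 at D7, so the groups did not overlap (log2 fold change 10.07 ± 0.49 SE at D4, adjusted p = 0.0014, and 8.11 ± 0.46 at D7, adjusted p = 0.0023). Hmga2 itself was at 0 in both control libraries, with 315 and 321 fragments at D4 and 50 and 79 at D7, which was at least 73.9-fold and 18.6-fold higher against 3 fragments per library. The predicted transcript thus had more fragments than the gene that holds it in each library, but fragment numbers are not scaled by length. By FPKM the levels were closer. The transcript had FPKM of 16.15 and 19.79 at D4 and 3.742 and 7.11 at D7. Hmga2 had FPKM of 17.12 and 15.73 at D4 and 3.103 and 5.24 at D7.

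MSTRG.28206.23 (chromosome 9 from 18567546 to 18598003) was 30436 nt long with only 22 nt of intron, inside Runx2, which codes for a transcription factor of bone formation that is also switched on in injured Schwann cells. Its FPKM was 0.063 and 0.032 in control, 12.7 and 19.02 at D4, and 13.4 and 14.2 at D7. Both injured groups stood well above the controls (log2 fold change 8.39 ± 0.50 SE, adjusted p = 0.00239, and 7.98 ± 0.49, adjusted p = 0.00303). Runx2 had 1.15 and 1.503, 47.2 and 53.0, and 31.2 and 36.9 FPKM in the same order, with log2 fold changes of 4.96 ± 0.17 and 4.39 ± 0.17. MSTRG.8516.9 (chromosome 13 from 104288983 to 104304842), 15016 nt long, lay inside Dusp10, a gene for a phosphatase that inactivates stress-activated MAP kinases. Its FPKM was 0.870 and 0.9992 in control, 28.9 and 29.97 at D4, and 9.86 and 13.9 at D7, and it was upregulated on both days (5.02 ± 0.19, adjusted p = 0.00079, and 3.48 ± 0.17, adjusted p = 0.00197). Dusp10 moved from 3.52 and 3.27 FPKM to 121.9 and 134.8 at D4 and 44.6 and 53.5 at D7.

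Sema3e, which codes for a secreted semaphorin that steers axons and vessels, held MSTRG.19354.1 and MSTRG.19356.1, 3914 and 8947 nt long with 28 and 50 nt of intron. MSTRG.19356.1 had 28 and 32 fragments in control, 425 and 608 at D4, and 846 and 744 at D7, the D7 libraries being the highest (log2 fold change 3.92 ± 0.24 SE and 4.62 ± 0.25, adjusted p = 0.00239 and 0.00201). MSTRG.19354.1 had 8 and 10, 168 and 238, and 343 and 342 fragments (4.30 ± 0.27 and 5.13 ± 0.28). Sema3e rose from 57 and 31 fragments to 1753 and 2352 at D4 and 1807 and 1702 at D7. The calls on both days for the transcripts inside Hmga2, Runx2, Dusp10 and Sema3e held when any 1 library was left out.

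The 250 bases before the annotated starts of these 4 host genes are shown because gene and inner transcript were upregulated on both days and the transcripts' calls held with any 1 library left out. The sequences of the predicted transcripts themselves need a genome that was not used here. They are RefSeq sequences of the build GRCr8, whose coordinates differ from those above, and Runx2 has 2 listed starts. Capitals mark the GC box GGGCGG or its reverse complement, the element bound by Sp1. The AP-1 element TGANTCA, which reads the same on both strands and is bound by Jun and Fos proteins, was searched as well and is in none of the 5 windows shown. Of all 33469 such windows in the table, 30.5% hold GGGCGG and 6.34% TGANTCA. Hmga2 (chr7:57880342-57880591, strand -) and the upstream Runx2 start (chr9:23664808-23665057, strand +) hold neither, Dusp10 (chr13:98145643-98145892, strand +) and the second Runx2 start (chr9:23742990-23743239, strand +) hold 1 GC box each, and Sema3e (chr4:21510375-21510624, strand -) holds 2. Dnm3 and Fam78b, the other named host genes called up on both days together with an inner transcript, have transcripts whose calls did not hold in that way, and their windows, not shown, hold 1 and 4 GC boxes and no TGANTCA. The matches describe letters only.
Hmga2: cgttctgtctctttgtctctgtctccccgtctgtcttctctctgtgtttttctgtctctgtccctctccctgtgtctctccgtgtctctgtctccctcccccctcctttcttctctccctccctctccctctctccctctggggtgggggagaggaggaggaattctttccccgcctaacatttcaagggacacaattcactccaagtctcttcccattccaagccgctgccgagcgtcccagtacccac
Dusp10: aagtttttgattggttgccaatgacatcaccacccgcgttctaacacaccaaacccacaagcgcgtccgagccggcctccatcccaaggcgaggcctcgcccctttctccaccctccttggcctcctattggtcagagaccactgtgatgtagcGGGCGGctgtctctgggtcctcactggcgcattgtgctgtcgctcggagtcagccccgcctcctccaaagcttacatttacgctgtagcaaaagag
Sema3e: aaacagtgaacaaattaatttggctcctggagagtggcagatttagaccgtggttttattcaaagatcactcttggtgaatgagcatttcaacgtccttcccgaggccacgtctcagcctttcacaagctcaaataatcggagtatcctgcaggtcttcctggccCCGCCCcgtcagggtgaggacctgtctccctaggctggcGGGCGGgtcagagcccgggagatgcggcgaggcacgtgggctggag
Runx2 upstream start: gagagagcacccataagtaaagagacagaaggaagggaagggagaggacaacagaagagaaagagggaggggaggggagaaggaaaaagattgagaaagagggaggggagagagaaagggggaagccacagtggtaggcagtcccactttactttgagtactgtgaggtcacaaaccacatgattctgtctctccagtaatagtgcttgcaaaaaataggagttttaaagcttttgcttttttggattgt
Runx2 second start: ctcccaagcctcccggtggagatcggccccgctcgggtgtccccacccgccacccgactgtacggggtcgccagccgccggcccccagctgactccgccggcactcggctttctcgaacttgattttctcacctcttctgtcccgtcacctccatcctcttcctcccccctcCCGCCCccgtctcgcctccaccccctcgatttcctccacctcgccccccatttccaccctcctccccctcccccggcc

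**Figure D4:**
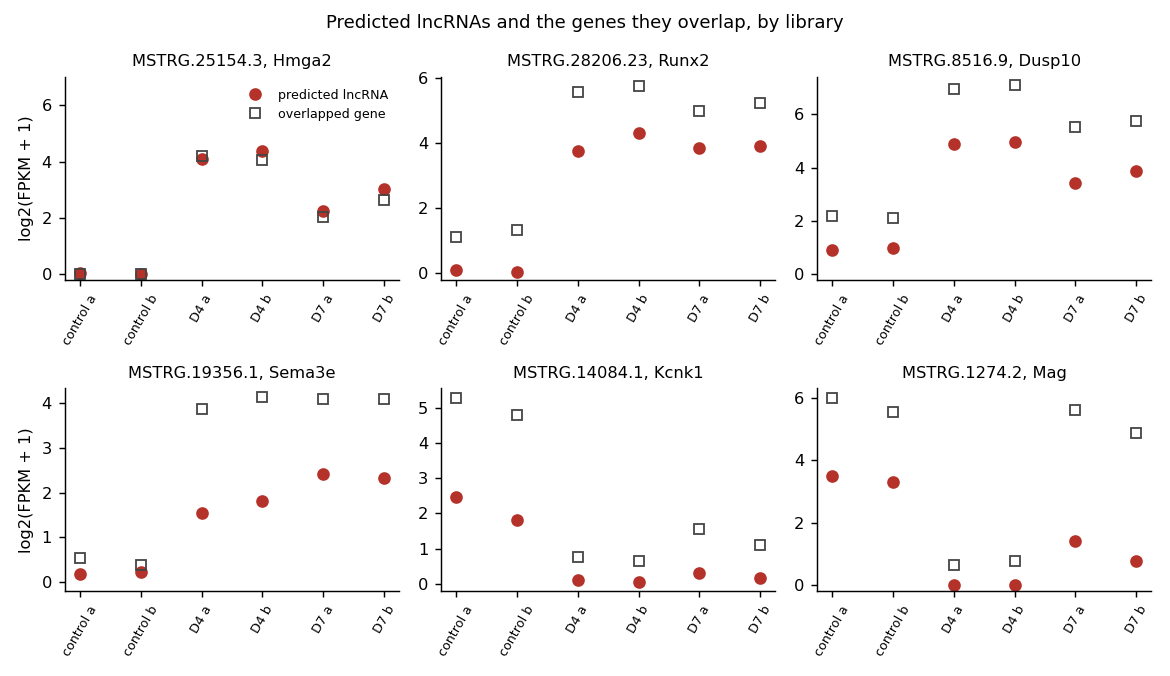
log2(FPKM + 1) of 6 predicted lncRNAs (filled circles) and of the gene each overlaps (open squares) in the 6 libraries. The transcripts inside Hmga2, Runx2, Dusp10 and Sema3e are near the axis or low in control and high at D4 and D7, and those at Kcnk1 and Mag are high in control and lowest at D4.

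The downregulated predicted lncRNAs included transcripts at a myelin gene and at ion channel genes. MSTRG.1274.2 and MSTRG.1274.1 began at the same base (chromosome 1 at 89359244) and overlapped a part of Mag, the gene for a glycoprotein of the myelin membrane that faces the axon. MSTRG.1274.2 had 686 and 502 fragments in control, 0 and 0 at D4, and 97 and 38 at D7, which was at least 219.9-fold lower at D4 against 3 fragments per library (adjusted p = 0.00564). At D7 its log2 fold change was -3.23 ± 0.51 SE (adjusted p = 0.0387), a call that was lost when any 1 library was left out (adjusted p 0.0503 to 0.118). MSTRG.1274.1 had 123 and 85, 4 and 8, and 15 and 36 fragments (D4 -4.25 ± 0.58, adjusted p = 0.0128, lost without control a, D4 a or D4 b with adjusted p up to 0.0966). Both transcripts together had 809 and 587 fragments in control, 4 and 8 at D4, and 112 and 74 at D7. This sum was called down on both days (log2 fold change -7.014 ± 0.40 SE, adjusted p = 0.0012, and -3.025 ± 0.31, adjusted p = 0.00669). It was higher at D7 than at D4 (3.99 ± 0.37, adjusted p = 0.0247). Mag had 4160 and 2502 fragments in control and 37 and 52 at D4, and 2835 and 1546 at D7, where it was not called (adjusted p = 0.0748).

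Inside Kcnk1, a gene for a potassium leak channel, MSTRG.14084.1 had FPKM of 4.58 and 2.51 in control, 0.082 and 0.032 at D4, and 0.25 and 0.13 at D7 (log2 fold change -5.94 ± 0.67 SE, adjusted p = 0.00769, and -4.43 ± 0.60, adjusted p = 0.0184). Kcnk1 itself went from 37.9 and 26.6 FPKM to 0.69 and 0.57 at D4 and 1.95 and 1.16 at D7. For the transcript and the gene alike, both D4 libraries lay below both D7 libraries, and all 4 lay below the controls. MSTRG.15190.1 inside Kcnab1, a potassium channel subunit gene, had FPKM of 1.26 and 3.04, 0.65 and 0.55, and 0.41 and 0.55, the control libraries differing more than 2-fold (-1.77 ± 0.41, adjusted p = 0.0499, and -2.32 ± 0.41, adjusted p = 0.0372). These calls rested on few libraries: that of MSTRG.14084.1 at D4 was lost without D4 a or D4 b (adjusted p up to 0.0627), and that at D7 without control a, D7 a or D7 b (up to 0.0886). MSTRG.15190.1 kept its call on either day only without control a (adjusted p up to 0.228 without the others).

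MSTRG.15842.1 (chromosome 2 from 209889548 to 209921062), 14114 nt long, overlapped the low-coordinate end of Kcna10, a voltage-gated potassium channel gene that was itself at 0 in all 6 libraries. The transcript had 909 and 890 fragments in control, 1 and 1 at D4, and 491 and 314 at D7. From control to D4 the ratio was 1006, with a 95% counting interval from 278.2 to 8317 (adjusted p = 0.00079), and this call held with any 1 library left out. At D7 its log2 fold change was -1.26 ± 0.24 SE (adjusted p = 0.0429, up to 0.129 and not called with any 1 library left out). MSTRG.7123.1 inside Col26a1, a collagen gene, had 305 and 230 fragments in control, 2 and 1 at D4, and 22 and 5 at D7 (D4 adjusted p = 0.00719, D7 adjusted p = 0.0225, with up to 0.0741 and no call at D4 without a D4 library and at D7 without a control or D4 library). Col26a1 itself had 244 and 53, 235 and 290, and 249 and 183 fragments and was not called, so here the transcript and the gene that holds it differed. MSTRG.12196.2 inside Mtr, which codes for methionine synthase, had FPKM of 20.7 and 21.8 in control and 0.77 to 0.95 in the 4 injured libraries (log2 fold change -4.63 ± 0.22 at D4, adjusted p = 0.0014, and -4.81 ± 0.22 at D7, adjusted p = 0.00197), called with any 1 library left out. Mtr stayed between 9.44 and 10.7 FPKM in all libraries, and its D4 change was -0.36 ± 0.09 on the log2 scale (adjusted p = 0.0234).

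Far from listed genes, MSTRG.18586.1 (chromosome 3 from 136172281 to 136182650), 972 nt long with 9398 nt of intron, had no fragment in either control library, 249 and 316 at D4, and 86 and 70 at D7. Against 3 fragments per library this was a rise of at least 83.7-fold and, at D7, 24.3-fold (adjusted p = 0.00239 and 0.00485), with any 1 library left out as well. MSTRG.19289.1 on chromosome 4, 392 nt long, had 0 and 0, 100 and 104, and 5 and 0 fragments and was called at D4 (adjusted p = 0.0243, up to 0.119 and not called without a control or D4 library). MSTRG.25956.2 on chromosome 7 had 0 and 0, 33 and 58, and 58 and 27 fragments (adjusted p = 0.0178 and 0.0255, up to 0.0881 without 1 library, with no call at D7 whichever was left out and none at D4 without a control or D4 library). Its locus of 2 transcripts had 10 and 4, 453 and 659, and 340 and 293 fragments in sum. This sum was called up on both days (log2 fold change 6.11 ± 0.40 SE, adjusted p = 0.00124, and 5.36 ± 0.39, adjusted p = 0.00293). In the other direction, MSTRG.5045.3 and MSTRG.5045.4 on chromosome 10 had introns of 104691 and 94365 nt in sum and shared most of their span. MSTRG.5045.4 had 312 and 372 fragments in control, 2 and 2 at D4, and 13 and 8 at D7, a ratio of 191.3 (95% counting interval 74.4 to 704.3) at D4 and a log2 fold change of -5.12 ± 0.33 SE at D7 (adjusted p = 0.00172 and 0.00339). MSTRG.17658.1 on chromosome 3, 10907 nt long, had 1527 and 1440 fragments in control, 11 and 12 at D4, and 180 and 250 at D7 (D4 -7.16 ± 0.28, adjusted p = 0.00079, and D7 -2.88 ± 0.22, adjusted p = 0.00512). Both calls of these last 2 transcripts held with any 1 library left out.

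Other called transcripts rested on few fragments in a group or lost their calls with 1 library left out. MSTRG.8177.2 inside Dnm3, a gene for a dynamin that pinches off membrane vesicles, had 1 and 1 fragments in control, 138 and 550 at D4, and 219 and 193 at D7 (ratio 307.4 with a 95% counting interval from 84.8 to 2544 at D4, adjusted p = 0.00731, up to 0.0519 and not called without control a or without control b; D7 adjusted p = 0.0132, up to 0.0774 and not called without a control or D7 library). Its locus had 157 and 136, 379 and 550, and 351 and 325 fragments in sum, called up on both days. MSTRG.8264.1 inside Fam78b, 6999 nt long with 21 nt of intron, had FPKM of 9.10 and 7.52 in control, 14.9 and 22.0 at D4, and 27.4 and 28.6 at D7 (log2 fold change 1.18 ± 0.23 SE, adjusted p = 0.0335, and 1.56 ± 0.23, adjusted p = 0.0233). Its D4 call was lost with any 1 library left out (adjusted p up to 0.138) and its D7 call without a control or D7 library (up to 0.106). MSTRG.27697.1 on chromosome 8 had 498 and 450, 0 and 5, and 47 and 11 fragments, and was called down at D4 (adjusted p = 0.0171, up to 0.0734 and not called without a control or D4 library).

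The remaining ones had low counts or no large change. MSTRG.20683.1, 7821 nt from the tetraspanin gene Cd9, had 66 and 20, 0 and 0, and 5 and 2 fragments, at least 15.7-fold lower at D4 (adjusted p = 0.0295, up to 0.113 and called only without control b). MSTRG.17657.3 on chromosome 3 had 32 and 17, 0 and 0, and 14 and 6 (at least 9.01-fold lower at D4, adjusted p = 0.0247, up to 0.1 and called only without a D7 library). MSTRG.6767.13 on chromosome 12 had 18 and 39 fragments in control and 0 in the 4 injured libraries (at least 10.8-fold lower at D4, adjusted p = 0.045, up to 0.173 and not called with any 1 library left out). The shortest transcript, MSTRG.16853.1, had 22 and 47, 6 and 5, and 7 and 9 fragments and was called down at D4 (adjusted p = 0.0382, up to 0.193 and called only without control a), and MSTRG.18115.1 with at most 3 in any library was not tested. MSTRG.1690.11 on chromosome 1, among the abundant ones, had FPKM of 13.6 and 16.1, 8.50 and 9.27, and 21.6 and 21.2 and was not called on either day.

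Several large fold changes belonged to loci with 2 or more transcripts of nearly the same span, where fragments were counted to a different transcript in different groups. At MSTRG.4110 inside Atp10b, a gene for a lipid flippase, MSTRG.4110.1 and MSTRG.4110.2 ended at the same base and had nearly the same start. MSTRG.4110.1 had 46 and 40 fragments in control, 99 and 107 at D4, and 0 and 0 at D7, while MSTRG.4110.2 had 0 in the 4 control and D4 libraries and 269 and 171 at D7. At D7 the first was thus called down (adjusted p = 0.00684) and the second up (adjusted p = 0.0134, and no call without D7 a or without D7 b), whereas their sum of 46, 40, 99, 107, 269 and 171 was upregulated at D7 (log2 fold change 2.23 ± 0.27 SE, adjusted p = 0.00996). At MSTRG.11870 inside Mboat1, MSTRG.11870.1 had 83 and 68, 27 and 43, and 0 and 0 fragments and MSTRG.11870.2 only the 37 and 53 at D7. They were called in opposite directions at D7 (adjusted p = 0.00757 and 0.0321, the second in none of the fits with 1 library left out), and their sum was not called (-0.86 ± 0.33, adjusted p = 0.166).

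The same was seen at MSTRG.5720 on chromosome 10, where the sum of both transcripts (28 and 31, 49 and 106, 52 and 65 fragments) was not called at D4 (adjusted p = 0.115) although MSTRG.5720.1 was called down (adjusted p = 0.00954) and MSTRG.5720.2 up (adjusted p = 0.0247, up to 0.127 and not called without a control or D4 library). At MSTRG.11191 on chromosome 16, MSTRG.11191.20 had 0 and 0 fragments in control, 1 and 0 at D4, and 101 and 235 at D7 and was called up at D7 (adjusted p = 0.0195, up to 0.0625 and called only without D7 a), while MSTRG.11191.19 had 990 and 1104, 479 and 599, and 421 and 417 and was called down (adjusted p = 0.0134, up to 0.0871 and not called without D7 a or without D7 b). MSTRG.3866.5 inside Adcy9, an adenylate cyclase gene, had 0 and 3 fragments in control, 361 and 349 at D4, and 298 and 310 at D7 and was called up on both days (adjusted p = 0.00634 and 0.0108), but its locus had 376 and 389, 428 and 349, and 298 and 310 in sum, a D4 change of -0.15 ± 0.21 on the log2 scale (adjusted p = 0.665). Adcy9 stayed between 6.15 and 7.25 FPKM. Of the 247 predicted lncRNAs called at D4, 42 belonged to loci with several transcripts, and the summed locus was called in the same direction for 32 of them and not called for 10. At D7 these numbers were 37 of 175, with 24 in the same direction, 12 not called and 1, MSTRG.4110.1, opposite. Summed over loci, 86 were upregulated and 170 downregulated of 1240 at D4, and 89 and 93 at D7.

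**Figure D5:**
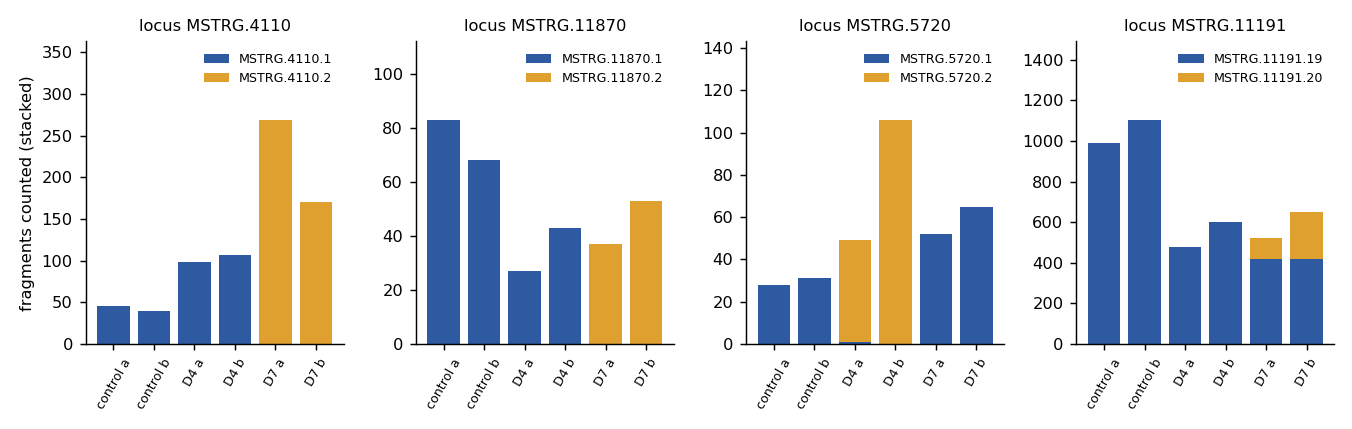
Fragments counted in each library for the 2 transcripts of 4 loci whose transcripts were called in opposite directions on the same day, stacked so that the height of a bar is the sum of the locus. At MSTRG.4110 and MSTRG.11870 all D7 fragments lie with the second transcript, at MSTRG.5720 nearly all D4 fragments do, and at MSTRG.11191 the second transcript takes a part of the D7 fragments.

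Transcripts of 1 locus could also differ between the libraries of 1 group. MSTRG.12272.61, the longest, had 42 and 2417 fragments in the control libraries, 21 and 1990 at D4, and 739 and 499 at D7, while all 16 transcripts of its locus came to 8117 and 6944, 6364 and 6065, and 9683 and 8464. The transcript was high in 1 control library and low in the other, and it was not called (adjusted p = 0.888 at D4), whereas the locus sum varied far less. MSTRG.12272.55 had 2469 and 1312, 425 and 58, and 55 and 25 fragments and was called down at D7 (adjusted p = 0.0493, up to 0.192 and not called without a control or D7 library), and the sum was not (0.15 ± 0.11, adjusted p = 0.456).

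Between the injured groups few changes passed the test. In the D4 vs D7 comparison 5 predicted lncRNAs were higher and 2 lower at D7 (0.353% and 0.141%), beside 0.142% and 0.107% of all lncRNAs, and 292 had an unadjusted p under 0.05. MSTRG.15842.1 at Kcna10 was 421.4-fold higher at D7 (95% counting interval 116.3 to 3485, adjusted p = 0.00189), and was called with any 1 library left out. MSTRG.17658.1 was higher at D7 by 4.28 ± 0.25 SE on the log2 scale (adjusted p = 0.00693, up to 0.0847 and not called without D4 a or without D4 b). MSTRG.26492.2 on chromosome 8, 230811 nt from Ntm, had 1 and 1 fragments in control, 1 and 1 at D4, and 144 and 227 at D7 (ratio to D4 194.2, 95% counting interval 53.4 to 1610, adjusted p = 0.00973, up to 0.0959 and not called without D4 a or without D4 b), while its locus had 305 and 221, 205 and 307, and 1071 and 786. MSTRG.16884.1 on chromosome 20 had FPKM of 6.54 and 6.91, 1.31 and 1.26, and 4.56 and 4.39, and was higher at D7 by 1.58 ± 0.17 (adjusted p = 0.0478). MSTRG.8516.9 inside Dusp10 fell by 1.54 on the log2 scale from D4 to D7, with an SE of 0.16 (adjusted p = 0.0478, up to 0.216, called only without D7 b). MSTRG.5720.1 was called up and MSTRG.4110.1 down, with the counts given above (adjusted p = 0.0478 and 0.0157), MSTRG.4110.1 with no call without a control or D4 library (up to 0.0959). MSTRG.16884.1 and MSTRG.5720.1 lost the call with any 1 library left out (adjusted p up to 0.24 and 0.123). The number called was 2 without D4 a, 4 without D4 b and 12 without D7 b.

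The genes that hold predicted lncRNAs were counted in the mRNA table. Of the 631 genes overlapped, 601 were tested, and 32 were upregulated and 95 downregulated at D4 (5.32% and 15.8%), beside 11.2% and 10.7% of all 15195 genes tested. At D7 38 were upregulated and 81 downregulated (6.32% and 13.5%), beside 9.83% and 9.02%. The median log2 fold change of these genes was -0.29 at D4 and -0.19 at D7, and of all genes -0.04 and 0.01. Without the scaling factors the split was 54 to 56 at D4 and 60 to 58 at D7, so the excess of downregulated over upregulated genes depended on the scaling. All genes were not counted in that setting, so how these genes stood against all genes there was not tested. The genes and the transcripts inside them share libraries and can share fragments, and the control libraries served both days.

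The gene lists of pathways known in nerve injury were searched for genes that held a predicted lncRNA. Among all 30957 listed genes, 631 were overlapped by at least 1. Of 19 myelin genes only Mag did, while 17 of the 19 were downregulated at D4 and 13 at D7. Of 22 genes of repair Schwann cells and the injury response, Hmga2 and Runx2 did, with 1 transcript each, upregulated on both days, and 17 of 21 tested genes were upregulated at D4 and 16 at D7. None of the 23 cell cycle genes held one, and all 22 tested genes of that list were upregulated on both days. The macrophage genes Adgre1, Mrc1 and Msr1 held 1 each, and 0 of these 3 were called by edgeR on either day (unadjusted p under 0.05 for 1 at D4 and 0 at D7, DESeq2 calls for 1 and 0), while 19 and 16 of the 20 genes of that list were upregulated. In the matrix list Adamts12 held 1, which edgeR did not call (unadjusted p under 0.05 on both days, called by DESeq2 on both). In the guidance and adhesion list Sema3e and Slit2 held 8, of which 6 were tested and the 2 in Sema3e upregulated on both days, whereas 10 of the 24 tested genes were downregulated at D4 and 7 at D7. No list was tested as a set.

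The summed levels of some cell type markers differed between the groups. Those of skeletal muscle overlapped in all 3 groups, and those of adipocytes and endothelial cells overlapped between D4 and D7. The 9 myelinating Schwann cell markers summed to 27980 to 39580 FPKM in control, 2401 to 2693 at D4 and 5713 to 8852 at D7, and all 9 had fragments. The 8 macrophage markers summed to 68.2 to 75.1 FPKM in control, 304.7 to 330.4 at D4 and 213.4 to 259.7 at D7, with all 8 upregulated at D4 and 6 at D7. Endothelial markers summed to 103.3 to 172.5, 72.8 to 81.2 and 43.8 to 74.0, adipocyte markers to 729.4 to 873.5, 231.9 to 478.7 and 60.04 to 502.5, and skeletal muscle markers to 10.6 to 27.4, 6.08 to 39.5 and 9.29 to 12.1. Erythroid markers summed to 940.9 to 1025 in control, 716.5 to 770.7 at D4 and 89.0 to 624.4 at D7, pigment cell markers to 1.12 to 1.34, 41.3 to 43.9 and 77.9 to 111.3, with Mlana and Tyr at 0 throughout, and lymphocyte markers to 2.18 to 2.72, 3.71 to 4.02 and 11.9 to 13.9. Of the 6 lymphocyte markers 3 were tested, with 2 upregulated and 1 downregulated at D4, and 2 upregulated at D7. Downregulated were 7 of 9 Schwann cell markers at D4 and 4 at D7, and 2 of 4 endothelial markers at D4 and 4 at D7. So were 2 of 9 tested muscle markers on each day, and 1 adipocyte and 1 erythroid marker at D7. Pigment cell markers were upregulated in 3 of 3 at D4 and 2 at D7. The part of these cell types in the changes of the predicted lncRNAs was not tested. In these bulk samples fewer cells of a type and less RNA per cell cannot be told apart.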

How the data were processed

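Ribosomal RNA-depleted total RNA was sequenced as read pairs. Per the study's methods, reads were mapped with Hisat2 2.0.4 to the Ensembl rat genome (Rnor_6.0) and assembled with Stringtie 1.3.0, and transcripts without a database match were kept as predicted lncRNAs with at least 200 nt, at least 2 exons, a short open reading frame and negative coding scores. The authors deposited Stringtie fragment counts and FPKM values per lncRNA and per gene, replicates not pooled. 

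From the deposited counts, edgeR 4.0.16 (filterByExpr, TMM factors, glmQLFit and glmQLFTest) was run with R 4.3.3 in 1 fit of all 6 libraries per table. Adjusted p-values are Benjamini-Hochberg values over all lncRNAs or genes tested, and a call needs an adjusted p under 0.05 and at least 2-fold. Fits were also run on simulated counts, drawn for each transcript separately, and the outcome is not given here. SEs were obtained as the size of the log2 change over the root of its F value. Where a group had no fragment, folds were computed against 3 fragments per library, and where its libraries had 1 to 3, as a ratio with an exact (Clopper-Pearson) interval. Both cover counting error only. Named transcripts were the 8 largest called rises and falls per day with a mean FPKM of at least 1 in a group and both injured libraries beyond both controls, up to 5 per direction between D4 and D7, the 8 most abundant, up to 3 called ones per gene list, up to 5 loci called both ways, and the 2 longest and 2 shortest. A transcript that this rule names and the counts for 1 gene list are not reported here. The members and the gene lists were chosen with earlier results of these data known. Nothing beyond 1 rat per library says what the replicate letters share, and p-values over 2 libraries per group rest on few degrees of freedom.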

Additional observations from a re-analysis of the deposited data

Results flagged for a closer look

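The changes at D4 and at D7 against control differed for 7 predicted lncRNAs, by the test of D7 against D4 (edgeR, adjusted p under 0.05 and at least 2-fold). The log2 fold change from D4 to D7 was 8.54 for MSTRG.15842.1, 4.28 for MSTRG.17658.1, 7.43 for MSTRG.26492.2, 6.60 for MSTRG.5720.1 and 1.58 for MSTRG.16884.1. It was -9.62 for MSTRG.4110.1 and -1.54 for MSTRG.8516.9. Of these, 4 belonged to loci with several transcripts (MSTRG.17658.1, MSTRG.26492.2, MSTRG.5720.1 and MSTRG.4110.1), and the summed locus was called for none of the 4 by edgeR, with adjusted p-values of 0.0656, 0.0656, 0.796 and 0.17. The unadjusted p was under 0.05 for 3 of these 4 loci, and no other tool was run on the sums. The groups of 2 libraries were too small to look for single libraries that stand apart.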

How the results depend on the processing

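With 2 rats per group, calls depended on the method. At D4 the 247 calls became 97 with a test of a change over 2-fold, and 76 to 192 with 1 library left out. At D7 the 175 calls became 285 with DESeq2, 101 without the low-count filter, 63 with the test over 2-fold, and 48 to 103 with 1 library left out. Between D4 and D7 the 7 calls became 11 with 2 groups only, 104 with DESeq2, 64 with the exact test, 58 jointly with the mRNAs, 4 without the filter, 31 with at least 10 counts in every library, 4 with the test over 2-fold, and 2 to 12 with 1 library left out. The cause of these differences was not tested, beyond the fewer samples or genes that a setting has by construction. Whether the replicate letters pair the rats cannot be decided with only 1 a minus b difference per group. Correlations of these differences between groups were 0.046, 0.066 and 0.014 over lncRNAs, and 0.010, 0.195 and -0.134 over genes. The replicate block gave 178 calls at D4, 110 at D7 and 3 between D4 and D7, and 127 and 116 host genes.

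The level difference from other lncRNAs was 1.29 with a pseudocount of 0.1, 1.26 from depth-scaled counts per kilobase, and 0.058 among filtered transcripts. The share overlapping a gene was 55.6% when at least 50% of the span had to be covered, and the share outside but near a gene 6.96% within 5 kb and 27.5% within 50 kb. Summed per locus, an alternative added after seeing the data, gave 256, 182 and 9 calls. With 1 library left out, calls of single named transcripts were often lost and rarely gained, with no change of direction among called ones. Each such fit leaves 1 rat in a group.

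Of the results for single named transcripts, the replicate block ended 19 calls and gained 0, DESeq2 ended 2 and gained 6, and leaving out the scaling factors ended 4 and gained 2.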
